A study of Arabidopsis thaliana with 18 samples.

Results

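The genes described here are 32 nuclear genes of Arabidopsis thaliana that encode the plastid route to isoprenoid precursors, the carotenoid pathway with its cleavage enzymes, and tocopherol synthesis. They were chosen by AGI code from a fixed list of pathway members, and all 32 were found among the 26073 genes listed in each library. Transcripts were measured by RNA sequencing in 2 genotypes and 3 organs, 3 libraries per group and 18 in all. The mutant pifq is labelled pif1pif3pif4pif5 -/-/-/- in the Col-0 background and lacks 4 PHYTOCHROME INTERACTING FACTORS, basic helix-loop-helix proteins that restrain light development in darkness. The wild type is Col-0 (WT). Cotyledons, apical hooks and hypocotyls of both genotypes came from 4-day-old seedlings that were kept in the dark throughout, at 22 °C and on MS with 3% sucrose, so that no group saw light, and the labels give neither the separate alleles nor whether seedlings were pooled.

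Plastids make isopentenyl diphosphate and dimethylallyl diphosphate by the methylerythritol phosphate (MEP) pathway, whereas the cytosol makes them from mevalonate. In the plastid these units are joined to geranylgeranyl diphosphate, which feeds carotenoids, the side chains of chlorophyll and tocopherol, and plastoquinone. Phytoene synthase commits geranylgeranyl diphosphate to carotenoids, and desaturases, cyclases and hydroxylases then lead to lutein and to the xanthophylls from which abscisic acid is made. Seedlings in the dark hold carotenoids in etioplasts, and PIF1 is known to bind the PSY promoter and repress PSY in the dark.

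Pathway transcripts stood mostly higher in pifq. In cotyledons 18 of the 31 genes that could be tested were higher in pifq than in WT and 4 were lower (adjusted p under 0.05 over all 19349 genes tested, limma), where 24.4% of all genes were higher and 35.4% lower. In hooks 24 were higher and 2 lower, against 36.6% and 24% of all genes. In hypocotyls 17 were higher and 1 lower, against 35.9% and 16.5%. The median log2 change of the 31 was 0.49 in cotyledons, 0.77 in hooks and 0.42 in hypocotyls, beside -0.10, 0.12 and 0.17 over all genes tested. Changes of at least 2-fold were counted on the log2 scale given below, not on the levels themselves. Upward they were called for 6, 8 and 5 members in the same order of organs, against 8.97%, 12.5% and 8.23% of all genes. Downward they were called for 2, 0 and 0 members, against 10.9%, 7.63% and 5.24%.

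Calls were then counted over the 3 organs. Higher in all 3 organs were 13 members, namely the 7 MEP genes, PSY, LCYE, LUT5, ZEP, CCD4 and OR, where 13.8% of all genes tested had that pattern. BCH1 alone was lower in all 3 organs, a pattern of 8.33% of genes. A further 5 members were called higher in cotyledons and hooks and not in hypocotyls, 4 in hooks and hypocotyls and not in cotyledons, and 2 in hooks and in neither other organ, whereas CCD1, HPPD and VTE4 were called lower in cotyledons and in neither other organ, and IDI2 lower in hooks and in neither other organ. The shares of all genes with these mixed patterns were not counted, so these counts do not set the members apart from other genes. Being called in one organ and not in another does not show a difference between those organs, which was tested separately. IDI1 and VTE1 were called in no organ.

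Levels here are FPKM, reads relative to exon length and library size, given as mean ± SD of 3 libraries or library by library in the order of the replicate numbers. Log2 changes are pifq against WT on the scale of log2(FPKM + 1), with their standard error, and that scale understates the change of low genes. How the libraries were scaled moved the balance over all genes. Dividing by median-ratio factors in place of the deposited scaling raised the share of called genes that were higher in cotyledons to 54.2%, against 40.8%, and lowered it to 47.8% in hooks and 46.2% in hypocotyls, against 60.4% and 68.5%. Over all genes the median log2 change then became 0.04, -0.03 and -0.03. On that scaling the members' medians were 0.69, 0.59 and 0.22, with 22, 21 and 12 members higher and 3, 4 and 3 lower. Of all genes, 32.4%, 28.5% and 23.3% were then higher and 27.4%, 31.2% and 27.1% lower.

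**Figure D1:**
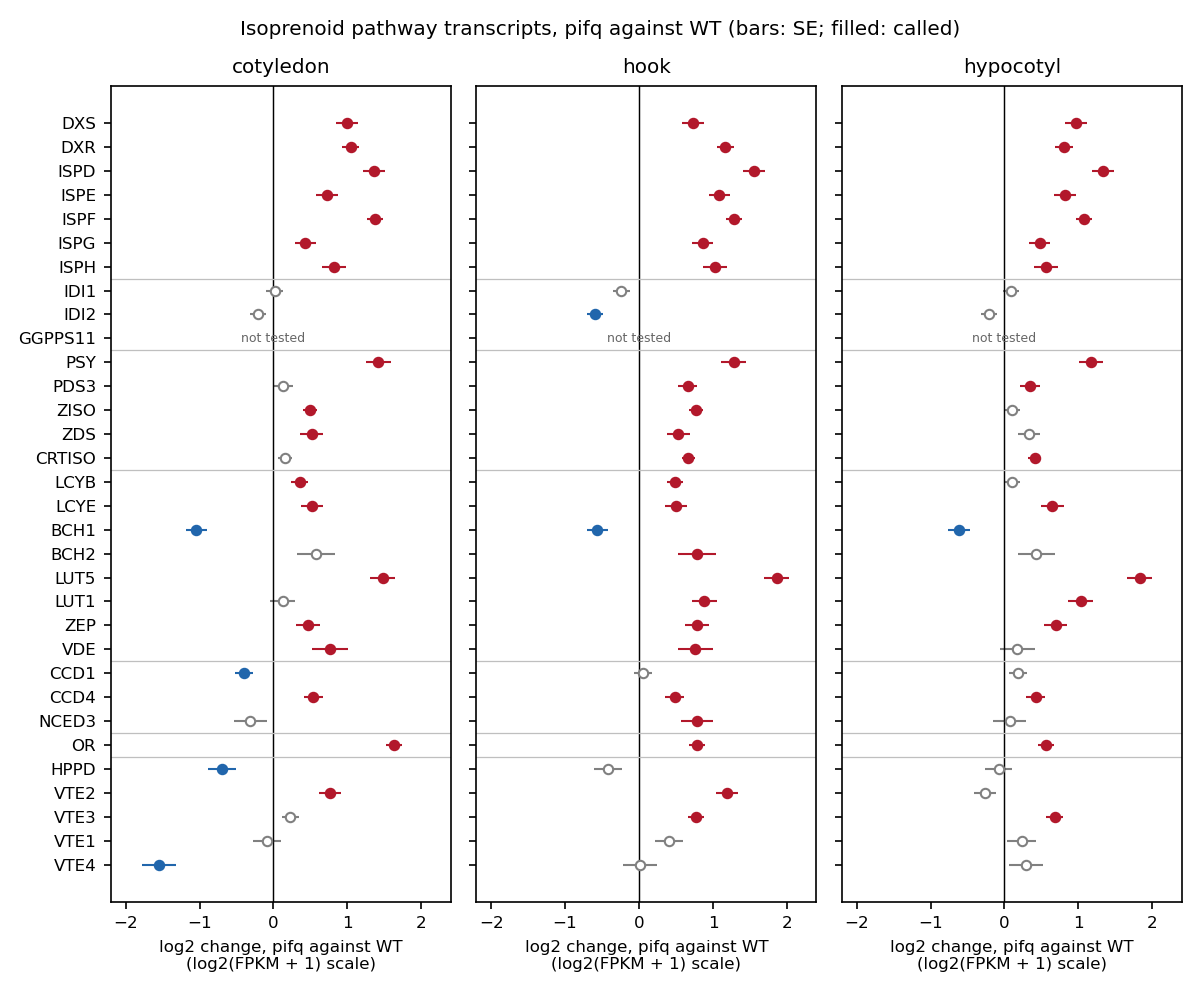
Log2 change of each gene in pifq against WT, on the scale of log2(FPKM + 1), in cotyledon, hook and hypocotyl, with genes in pathway order from DXS to VTE4. Points are estimates, bars standard errors and filled points adjusted p under 0.05, so that the 7 MEP genes at the top lie right of 0 in every organ and BCH1 left of it.

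Depth was 12955863 to 20701212 reads or read pairs per library, read from the steps of the low values. PIF3, a targeted locus, stood at 3.16 ± 0.437 FPKM in pifq cotyledons and 54.4 ± 2.81 FPKM in WT cotyledons, and it and PIF5 were lower in pifq in all 3 organs. PIF1 was lower in pifq in hooks and higher in hypocotyls, and PIF4 was higher in hypocotyls and uncalled elsewhere, and a value over a whole gene need not show a disrupted transcript. Organelle-encoded genes held 0.145 to 0.227% of summed FPKM in pifq cotyledons and 2.58 to 4.05% in WT cotyledons, 0.1004 to 0.119% in pifq hooks and 2.08 to 4.11% in WT hooks, and 0.09698 to 1.61% in pifq hypocotyls and 1.01 to 3.34% in WT hypocotyls. Fitted with that share as a further term, 8 members were higher and 4 lower in cotyledons, 9 and 0 in hooks and 14 and 1 in hypocotyls. In that fit 13.9% of all genes were higher and 17.4% lower in cotyledons, 20.7% and 10.2% in hooks and 32.4% and 13.5% in hypocotyls. The share does not overlap between the genotypes in cotyledons and hooks, and the median standard error of the members was then 0.26 and 0.29, against 0.15 without it. All 3 pifq hook libraries entered the fit, although pifq hook replicate 2 lay apart from the other two on the first principal component. Without it, 25 members were higher and 3 lower in hooks, against 33.2% and 24.7% of all genes.

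Markers of cell types were counted as well, and their counts are to be read against the shares of all genes. Those were 24.4% higher in pifq and 35.4% lower in cotyledons, 36.6% and 24% in hooks and 35.9% and 16.5% in hypocotyls. Guard cell markers (MYB60, KAT1, FAMA and EPF1) were higher in pifq for 4 of 4 in cotyledons, with sums of 42.6 to 44.6 FPKM in pifq and 15.3 to 18.7 FPKM in WT, and for 2 of 4 in hooks and in hypocotyls. Mesophyll photosynthesis markers (LHCB3, RBCS1A, CA1 and GLK1) were higher for 2 of 4 in cotyledons, 4 of 4 in hooks and 3 of 4 in hypocotyls. Their sum was 6585 to 9877 FPKM in pifq hooks and 3661 to 5705 FPKM in WT hooks. Reserve mobilisation markers of the germinating cotyledon (ICL, MLS, PCK1 and SDP1) summed to 528 to 683 FPKM in pifq cotyledons and 7602 to 9285 FPKM in WT cotyledons, and in pifq they did not set cotyledons above hypocotyls (549 to 743 FPKM). They were lower in pifq for 4 of 4 in cotyledons and hooks and 3 of 4 in hypocotyls. Hook and stem markers (GASA4, HLS1 and BP) summed to 1454 to 1627 FPKM in pifq hooks and 11107 to 13965 FPKM in WT hooks, with GASA4 (-3.04 ± 0.21) and HLS1 (-2.45 ± 0.23) lower and BP not called, and GASA4 and HLS1 were lower in hypocotyls too, where BP was higher. Xylem markers (CESA4, CESA7, CESA8 and XCP1) were higher in pifq for 3 of 4 in hooks, with sums of 56.6 to 71.4 FPKM in pifq and 34.6 to 38.8 FPKM in WT. In cotyledons 1 of them was higher and 1 lower, and in hypocotyls none of the 4 was called (limma, none at an unadjusted p under 0.05). Of the 3 meristem and boundary markers tested (STM, CUC1 and CUC2), 2 were higher in pifq hooks, with sums of 15.3 to 23.6 FPKM in pifq and 9.22 to 12.97 FPKM in WT, 2 were lower in cotyledons and 1 was higher in hypocotyls, and WUS was at or near 0 in every group. Of the root markers, SCR stood at 16.7 to 31.6 FPKM over all libraries and was lower in pifq cotyledons (-0.27 ± 0.11). EXPA7, COBL9 and PLT1 were at or near 0 in cotyledons and hooks, where EXPA7 reached at most 1.07 FPKM. In hypocotyls they reached at most 2.73, 0.825 and 1.23 FPKM. The pifq hypocotyl libraries were uneven, with EXPA7 at 1.47, 2.01 and 0 FPKM, COBL9 at 0.586, 0.825 and 0 FPKM and PLT1 at 0.783, 1.23 and 0.0612 FPKM. Their organelle-encoded shares were 0.870%, 1.61% and 0.0970%. The part of these cell types in the pathway results was not tested, and in whole organs fewer cells of a type and less RNA per cell cannot be told apart.

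Promoter sequence is shown for the genes with the greatest change per organ and for PSY, the committed step of the carotenoid pathway. Each window is the 300 bases before the annotated gene start in TAIR10.1 (RefSeq), written 5′ to 3′ on the strand of the gene. PSY lies on chromosome 5 (chr5:5662998-5663297, minus strand), LUT5 on chromosome 1 (chr1:11396102-11396401, plus strand) and OR on chromosome 5 (chr5:24783129-24783428, plus strand). PIF proteins are known to bind the G-box CACGTG and the PBE-box CACATG and both strands were searched. Capitals mark these motifs, and none of these 3 windows holds either.
PSY: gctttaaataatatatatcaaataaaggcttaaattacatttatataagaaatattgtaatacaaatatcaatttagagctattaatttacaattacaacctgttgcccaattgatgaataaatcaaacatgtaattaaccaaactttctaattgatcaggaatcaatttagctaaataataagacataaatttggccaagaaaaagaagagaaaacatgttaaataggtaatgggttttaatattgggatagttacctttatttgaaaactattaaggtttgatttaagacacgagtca
LUT5: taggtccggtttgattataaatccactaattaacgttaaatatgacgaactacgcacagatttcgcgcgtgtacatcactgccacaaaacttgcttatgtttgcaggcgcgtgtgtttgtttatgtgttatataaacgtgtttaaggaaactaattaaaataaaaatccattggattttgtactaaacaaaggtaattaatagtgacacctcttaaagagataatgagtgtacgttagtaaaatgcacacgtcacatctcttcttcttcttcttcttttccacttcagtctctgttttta
OR: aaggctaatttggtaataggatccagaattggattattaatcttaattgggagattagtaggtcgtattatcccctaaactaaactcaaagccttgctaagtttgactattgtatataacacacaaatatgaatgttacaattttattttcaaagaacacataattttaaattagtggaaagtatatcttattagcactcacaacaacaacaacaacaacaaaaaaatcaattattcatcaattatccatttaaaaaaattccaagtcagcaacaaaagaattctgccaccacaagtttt

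Among the 32 genes, 4 had a G-box in this window (12.5%, against 7.67% of 24067 genes), 6 had a PBE-box (18.8%, against 13.2%) and 9 had one or the other (28.1%, against 19.5%). A G-box stood before ISPF, BCH2, VTE2 and, in 2 places, HPPD. These short windows show the G-box in capitals with its flanks, since flanking bases differ between sites. They lie at chr1:23740482-23740511 (ISPF, minus strand), chr5:21337260-21337289 (BCH2, minus strand), chr2:8207062-8207091 (VTE2, plus strand) and chr1:2013752-2013781 and chr1:2013657-2013686 (HPPD, minus strand).
ISPF: aaaactcctctaCACGTGgtctttagtaaa
BCH2: ggaagaagaggcCACGTGgagccattaaat
VTE2: taaaaaggacaaCACGTGatacttttcctc
HPPD distal: agataggtcttaCACGTGagcattccgtaa
HPPD proximal: aatctgatcgtaCACGTGtacactatgatg
The G-box began 115 bases before the start of ISPF, 151 before BCH2, 125 before VTE2, and 224 and 129 before HPPD. In cotyledons ISPF and VTE2 were higher in pifq, HPPD was lower and BCH2 was not called. A PBE-box stood before DXS, ISPG, ISPH, BCH2, VTE3 and VTE4, of which DXS, ISPG and ISPH were higher in all organs and VTE4 was lower in cotyledons. Some windows run into a neighbouring annotated gene, by 192 of 300 bases for ISPF, 185 for ISPG, 171 for VTE3 and all 300 for ISPD and LCYE. A match of letters is a description and not a shown binding site, and no match says only that the letters are not in this window.

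The members were expressed above the typical gene. Their median level in pifq was 52.4 FPKM in cotyledons, 33.9 FPKM in hooks and 21.2 FPKM in hypocotyls, and in WT it was 34.2, 19.7 and 15.6 FPKM. The median over all genes tested lay between 7.32 and 10.4 FPKM. VTE3, a methyltransferase of tocopherol and plastoquinone synthesis, had the highest level of the members in every group, with 369 ± 11.5 FPKM in pifq cotyledons and 315 ± 22.2 FPKM in WT cotyledons. DXS came next in all 3 pifq organs and in WT hooks, and CCD1 in WT cotyledons and WT hypocotyls. Of the genes tested, VTE2 was lowest in cotyledons of both genotypes and CCD4 in hooks and hypocotyls. Summed over all members, pifq cotyledons had 2705, 2672 and 2631 FPKM and WT cotyledons 1911, 1908 and 1886 FPKM. The sums were 1762, 1428 and 1844 FPKM in pifq hooks and 1182, 1009.5 and 956 FPKM in WT hooks, with pifq hook replicate 2 the lowest of its group. In hypocotyls they were 967, 889 and 1022 FPKM in pifq and 701, 739.5 and 658 FPKM in WT, and in no organ did the genotypes overlap.

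Organ set a second gradient. The mean level was highest in cotyledons, then hooks, then hypocotyls for 24 of the 31 tested members in each genotype. In pifq, 25 of 31 members were lower in hooks than in cotyledons (limma, against 11.4% of all genes) and 2 were higher (53.4%). In pifq hypocotyls 24 were lower than in cotyledons (22.4%) and 23 lower than in hooks (37.6%), with 3 (49.5%) and 1 (27.1%) higher. In WT, 26 were lower in hooks than in cotyledons (23.9%), 25 lower in hypocotyls than in cotyledons (37.7%) and 22 lower in hypocotyls than in hooks (41.9%). The higher ones in WT were 2 (33.9%), 3 (36.3%) and 3 (22.8%) in those comparisons. Both steps down were called for 22 members in pifq (8.31% of all genes) and 20 in WT (13.9%).

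A few genes ran the other way. VTE2, which joins homogentisate to a phytyl chain, stood at 11.2 ± 1.59 FPKM in WT hypocotyls, 3.56 ± 0.341 FPKM in WT hooks and 1.92 ± 0.343 FPKM in WT cotyledons, and each step differed. In pifq it stood at 9.15 ± 0.706 FPKM in hypocotyls, 9.42 ± 0.795 FPKM in hooks and 4.01 ± 1.08 FPKM in cotyledons, where the hypocotyl and hook were both above the cotyledon and the step between them was not called (-0.04 ± 0.15, adjusted p = 0.84). NCED3, which cleaves epoxycarotenoids toward abscisic acid, stood at 48.4 ± 14.8 FPKM in pifq hypocotyls against 17.04 ± 1.33 FPKM in pifq cotyledons (log2 change 1.41 ± 0.22, adjusted p = 2.4e-05). In WT it stood at 46.2 ± 14.96 FPKM in hypocotyls and 21.8 ± 5.52 FPKM in cotyledons. IDI1 was higher in hooks and hypocotyls than in cotyledons in both genotypes. For IDI2 and VTE1 no pair of organs was called in either genotype. OR was lower in the hypocotyl than in the cotyledon in pifq (log2 change -1.23 ± 0.11), whereas in WT that step was not called (-0.16 ± 0.11).

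**Figure D2:**
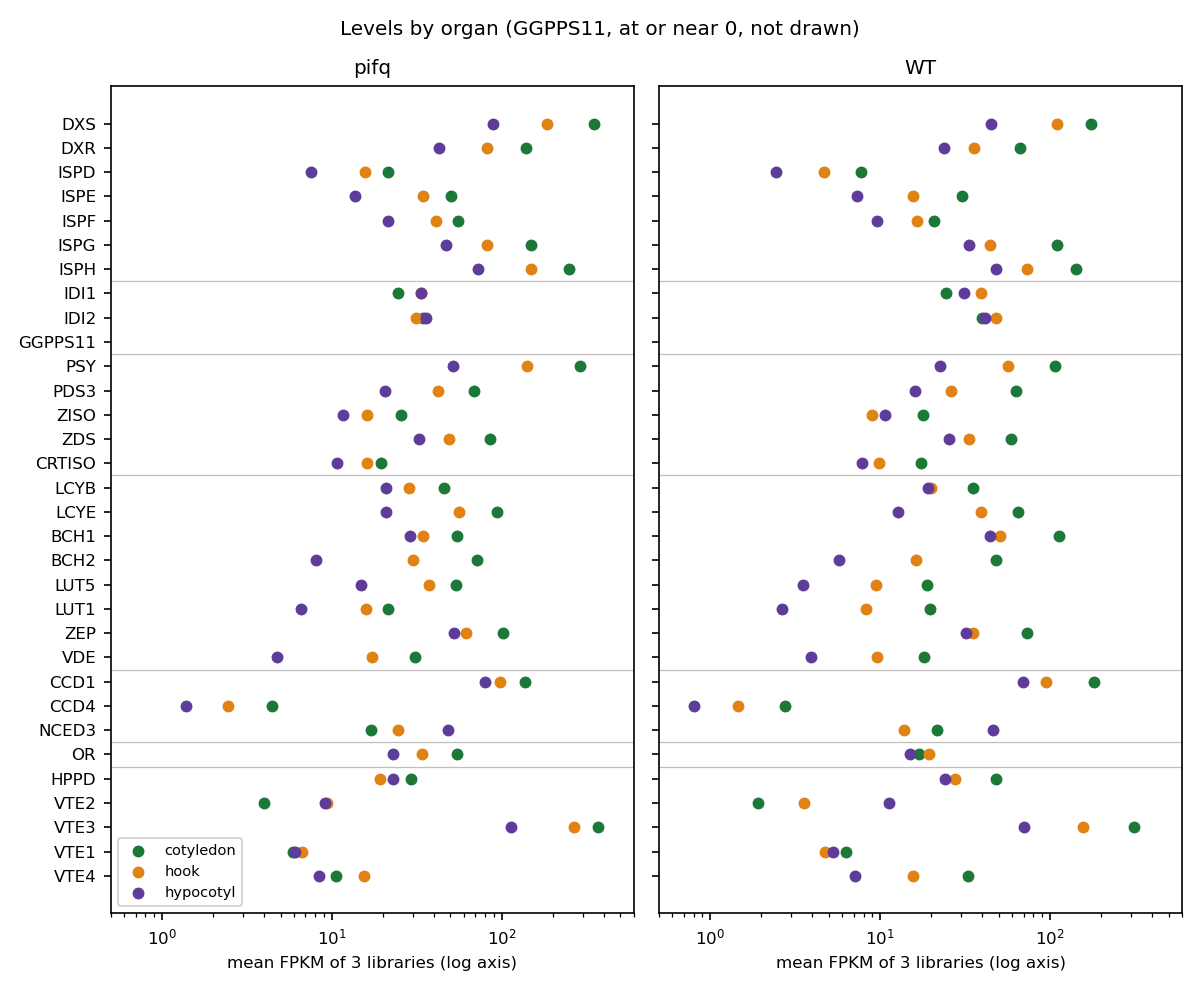
Mean FPKM of 3 libraries on a log axis for each gene in pathway order, pifq in the left panel and WT in the right, with organs by colour. Most genes run from cotyledon on the right to hypocotyl on the left in both genotypes, and VTE2 and NCED3 have a higher level in hypocotyl than in cotyledon in both.

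All 7 genes of the MEP pathway were higher in pifq in each organ, with a median log2 change of 0.99 in cotyledons, 1.09 in hooks and 0.82 in hypocotyls. For all 7 genes in each organ the 3 pifq libraries lay above the 3 WT libraries, as they did for 28.3% of all genes in cotyledons, 39.8% in hooks and 37.9% in hypocotyls. Their summed level was 1058, 1024 and 969 FPKM in pifq cotyledons and 562, 552 and 547 FPKM in WT cotyledons. In hooks the sums were 612, 479 and 680.1 FPKM in pifq and 358, 271 and 275 FPKM in WT. In hypocotyls they were 317, 248 and 319 FPKM in pifq and 162, 178 and 169.7 FPKM in WT. Every pifq sum exceeded every WT sum of its organ.

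DXS (AT4G15560, chromosome 4, 8883825 to 8887667, plus strand), which condenses pyruvate and glyceraldehyde phosphate in the first and flux-setting step, had the highest level of the pathway in every group but WT hypocotyls, where ISPH stood slightly above it. It stood at 351 ± 27.1 FPKM in pifq and 176 ± 6.92 FPKM in WT in cotyledons (log2 change 0.99 ± 0.15, adjusted p = 3.3e-05), at 186 ± 38.7 FPKM in pifq and 111 ± 19.4 FPKM in WT in hooks (log2 change 0.73 ± 0.15, adjusted p = 5.8e-04) and at 89.5 ± 14.3 FPKM in pifq and 45.03 ± 3.52 FPKM in WT in hypocotyls (log2 change 0.97 ± 0.15, adjusted p = 7.2e-05). DXR (AT5G62790, chromosome 5, 25214125 to 25217469, minus strand), the reductoisomerase that makes methylerythritol phosphate, had 139, 142 and 134 FPKM in the pifq libraries, against 65.9, 69.3 and 65.05 FPKM in the WT libraries in cotyledons (log2 change 1.04 ± 0.12, adjusted p = 1.2e-06). In hooks it had 85.1, 67.9 and 94.1 FPKM in the pifq libraries, against 37.6, 35.04 and 34.8 FPKM in the WT libraries (log2 change 1.17 ± 0.12, adjusted p = 4.0e-07). The genotypes were well apart in both organs, and pifq hook replicate 2 was the lowest of its group for DXS and DXR alike. In hypocotyls DXR stood at 42.8 ± 6.64 FPKM in pifq and 23.9 ± 1.497 FPKM in WT (log2 change 0.81 ± 0.12, adjusted p = 3.2e-05).

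ISPD and ISPF had the greatest log2 changes of the 7 genes in each organ. ISPD (AT2G02500, chromosome 2, 670461 to 673327, minus strand), which attaches the cytidyl group, had 20.9, 22.9 and 20.7 FPKM in the pifq libraries, against 7.97, 8.57 and 6.78 FPKM in the WT libraries in cotyledons (log2 change 1.36 ± 0.15, adjusted p = 9.1e-07). In hooks it had 17.2, 13.4 and 16.6 FPKM in the pifq libraries, against 5.53, 4.45 and 4.08 FPKM in the WT libraries (log2 change 1.56 ± 0.15, adjusted p = 2.4e-07), and in hypocotyls 7.77, 6.57 and 8.41 FPKM in the pifq libraries, against 2.15, 1.91 and 3.29 FPKM in the WT libraries (log2 change 1.33 ± 0.15, adjusted p = 2.3e-06). ISPD was the lowest of the 7 in level, and all 3 pifq libraries lay above all 3 WT libraries in each organ. ISPF (AT1G63970, chromosome 1, 23738673 to 23740384, minus strand), the cyclodiphosphate synthase with a G-box in its upstream window, had 50.5, 57.98 and 58.3 FPKM in the pifq libraries, against 19.4, 22.6 and 20.4 FPKM in the WT libraries in cotyledons (log2 change 1.38 ± 0.11, adjusted p = 3.1e-08). It had 42.7, 38.9 and 41.7 FPKM in the pifq libraries, against 18.4, 17.9 and 13.1 FPKM in the WT libraries in hooks (log2 change 1.28 ± 0.11, adjusted p = 7.4e-08) and 22.2, 21.2 and 20.97 FPKM in the pifq libraries, against 10.4, 9.304 and 9.19 FPKM in the WT libraries in hypocotyls (log2 change 1.08 ± 0.11, adjusted p = 9.3e-07). Groups did not overlap for ISPF in any organ. ISPE (AT2G26930, chromosome 2, 11491707 to 11494290, minus strand), the kinase between these steps, had 37.04, 28.1 and 37.7 FPKM in the pifq libraries, against 18.3, 13.7 and 14.8 FPKM in the WT libraries in hooks (log2 change 1.09 ± 0.15, adjusted p = 9.3e-06). It stood at 50.7 ± 1.48 FPKM in pifq and 30.2 ± 1.01 FPKM in WT in cotyledons (log2 change 0.73 ± 0.15, adjusted p = 4.3e-04) and 13.8 ± 3.12 FPKM in pifq and 7.28 ± 0.508 FPKM in WT in hypocotyls (log2 change 0.82 ± 0.15, adjusted p = 2.2e-04).

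The last steps are run by iron-sulfur enzymes, of which ISPG had the lowest log2 change of the 7 genes in cotyledons and hypocotyls. ISPG (AT5G60600, chromosome 5, 24358885 to 24363485, plus strand) stood at 149.8 ± 16.5 FPKM in pifq and 111 ± 1.32 FPKM in WT in cotyledons (log2 change 0.43 ± 0.14, adjusted p = 0.017), 82.5 ± 16.5 FPKM in pifq and 44.6 ± 6.31 FPKM in WT in hooks (log2 change 0.86 ± 0.14, adjusted p = 8.0e-05) and 47 ± 6.15 FPKM in pifq and 33.4 ± 3.36 FPKM in WT in hypocotyls (log2 change 0.48 ± 0.14, adjusted p = 0.010). Without pifq cotyledon replicate 1 its cotyledon change was 0.34 with adjusted p = 0.079. ISPH (AT4G34350, chromosome 4, 16428407 to 16431144, minus strand), the reductase that releases both products of the pathway, had 158, 119 and 169 FPKM in the pifq libraries, against 93.3, 60.9 and 65.02 FPKM in the WT libraries in hooks (log2 change 1.03 ± 0.16, adjusted p = 4.4e-05). It stood at 249 ± 2.97 FPKM in pifq and 142 ± 14.5 FPKM in WT in cotyledons (log2 change 0.81 ± 0.16, adjusted p = 3.7e-04) and 72.2 ± 12.3 FPKM in pifq and 48.2 ± 2.93 FPKM in WT in hypocotyls (log2 change 0.56 ± 0.16, adjusted p = 0.0080). The log2 changes of the 7 genes stayed above 0 under every planned setting. With the organelle-encoded share in the fit 4, 3 and 5 of them were called in cotyledons, hooks and hypocotyls, and with median-ratio scaling 7, 7 and 5, with ISPG and ISPH not called in hypocotyls.

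Next come the isomerases of these products. IDI1 and IDI2 interconvert isopentenyl and dimethylallyl diphosphate, and neither was higher in pifq in any organ. IDI1 (AT5G16440) stood at 24.6 ± 0.4802 FPKM in pifq and 24.4 ± 2.47 FPKM in WT in cotyledons, 33.5 ± 5.399 FPKM in pifq and 39.4 ± 1.403 FPKM in WT in hooks (adjusted p = 0.077) and 33.4 ± 3.36 FPKM in pifq and 31.3 ± 2.22 FPKM in WT in hypocotyls. Without pifq hook replicate 2 its hook change was -0.32 with adjusted p = 0.030. IDI2 (AT3G02780, chromosome 3, 602401 to 605506, minus strand) was lower in pifq hooks, with 31.3 ± 0.755 FPKM in pifq and 48.1 ± 2.06 FPKM in WT (log2 change -0.60 ± 0.11, adjusted p = 1.7e-04), and was not called in cotyledons (-0.21 ± 0.11, adjusted p = 0.10) or hypocotyls (-0.21 ± 0.11, adjusted p = 0.12). Its hypocotyl change was -0.32 with adjusted p = 0.019 without WT hypocotyl replicate 2, and -0.31 with adjusted p = 0.031 without pifq hypocotyl replicate 2. An annotated gene on the other strand lies inside the span of IDI2, and without strand in the libraries its reads could not be told apart.

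GGPPS11 (AT4G36810, chromosome 4, 17343374 to 17345171, plus strand), the main plastid geranylgeranyl diphosphate synthase, was listed at 0 in 15 of 18 libraries. It was listed at 0.0321 FPKM in WT cotyledon replicate 2, 0.0331 FPKM in pifq hook replicate 1 and 0.0307 FPKM in pifq hook replicate 3, and it entered no test. In TAIR10.1 an antisense gene, AT4G36808, covers 85.0% of its span. How reads in that overlap were counted is not given in the sources used here, so this value is not read as the level of the gene.

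Phytoene synthase PSY (AT5G17230, chromosome 5, 5659554 to 5662997, minus strand), whose upstream window is printed above, joins geranylgeranyl units to phytoene and is the sole phytoene synthase gene of Arabidopsis. It had 289, 288 and 287 FPKM in the pifq libraries, against 117, 104 and 101 FPKM in the WT libraries in cotyledons (log2 change 1.42 ± 0.17, adjusted p = 2.2e-06). In hooks PSY had 154, 104 and 165 FPKM in the pifq libraries, against 63.4, 54.8 and 51.7 FPKM in the WT libraries (log2 change 1.28 ± 0.17, adjusted p = 7.4e-06), and in hypocotyls 53.3, 42.5 and 58.5 FPKM in the pifq libraries, against 18.7, 27.9 and 20.7 FPKM in the WT libraries (log2 change 1.17 ± 0.17, adjusted p = 2.9e-05). The 3 pifq cotyledon libraries were closely grouped and the pifq hooks spread, with replicate 2 lowest, but no pifq library reached down to WT in its organ. An overlap of 108 bases with a gene on the other strand, AT5G17220, lies at the 3′ end of PSY.

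OR (AT5G61670, chromosome 5, 24783429 to 24786265, plus strand), annotated as orange protein, encodes a DnaJ-type chaperone-like protein known to bind and stabilise phytoene synthase. It had 50.8, 54.99 and 57.9 FPKM in the pifq libraries, against 16.2, 17.6 and 16.9 FPKM in the WT libraries in cotyledons (log2 change 1.63 ± 0.11, adjusted p = 3.5e-09), the greatest change of any member there. In hooks it stood at 34.2 ± 1.91 FPKM in pifq and 19.4 ± 0.832 FPKM in WT (log2 change 0.78 ± 0.11, adjusted p = 1.1e-05) and in hypocotyls at 22.8 ± 3.303 FPKM in pifq and 15.1 ± 2.13 FPKM in WT (log2 change 0.56 ± 0.11, adjusted p = 3.8e-04). WT levels of OR lay between 12.8 and 20.4 FPKM over the 9 WT libraries, and the pifq cotyledon libraries stood apart from all others. The log2 change in hooks minus that in cotyledons was -0.85 ± 0.15 (log2, adjusted p = 3.9e-04) and that in hypocotyls minus that in cotyledons was -1.07 ± 0.15 (adjusted p = 4.4e-05).

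The 4 enzymes that turn phytoene into lycopene had lower log2 changes than PSY in each organ. They were called higher in pifq for 2 of 4 in cotyledons, 4 of 4 in hooks and 2 of 4 in hypocotyls. Of all genes 24.4%, 36.6% and 35.9% were higher, so 2 of 4 does not set these enzymes apart in hypocotyls. PDS3, the phytoene desaturase, stood at 69 ± 4.58 FPKM in pifq and 62.9 ± 1.41 FPKM in WT in cotyledons, where its change of 0.13 ± 0.13 was not called, and at 42.3 ± 6.95 FPKM in pifq and 26.3 ± 2.899 FPKM in WT in hooks (log2 change 0.66 ± 0.13, adjusted p = 4.9e-04). Its hypocotyl call (log2 change 0.34 ± 0.13, adjusted p = 0.041) came with overlapping groups and was lost without any one of WT hypocotyl replicates 1 and 3 and pifq hypocotyl replicates 1 and 3 (adjusted p = 0.099 to 0.17). ZISO, the cis-isomerase that follows, stood at 25.7 ± 1.97 FPKM in pifq and 17.9 ± 0.394 FPKM in WT in cotyledons (log2 change 0.49 ± 0.10, adjusted p = 3.9e-04) and 16.1 ± 2.28 FPKM in pifq and 8.96 ± 0.415 FPKM in WT in hooks (log2 change 0.77 ± 0.10, adjusted p = 5.4e-06). In hypocotyls ZISO was not called (0.11 ± 0.10). ZDS, the second desaturase, was higher in cotyledons (log2 change 0.52 ± 0.15, adjusted p = 0.0086) and hooks (log2 change 0.53 ± 0.15, adjusted p = 0.0073), and its hypocotyl change of 0.33 ± 0.15 had adjusted p = 0.084. That p was 0.032 without WT hypocotyl replicate 2 and 0.038 without pifq hypocotyl replicate 2. CRTISO, which gives all-trans lycopene, was higher in hooks (log2 change 0.67 ± 0.09, adjusted p = 9.4e-06) and hypocotyls (log2 change 0.41 ± 0.09, adjusted p = 0.0012) and not called in cotyledons (0.16 ± 0.09). With median-ratio scaling ZDS was not called in hooks, nor PDS3 and CRTISO in hypocotyls, whereas PDS3 and CRTISO were called higher in cotyledons.

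At the fork of the pathway the cyclases LCYB and LCYE make the beta and epsilon rings. LCYB stood at 45.5 ± 2.25 FPKM in pifq and 35.5 ± 2.83 FPKM in WT in cotyledons (log2 change 0.35 ± 0.11, adjusted p = 0.012) and 28.4 ± 3.42 FPKM in pifq and 20.03 ± 2.96 FPKM in WT in hooks (log2 change 0.49 ± 0.11, adjusted p = 0.0014), and was not called in hypocotyls (0.10 ± 0.11). Without WT cotyledon replicate 1 its cotyledon p was 0.061. LCYE, which opens the branch to lutein, stood at 93.9 ± 4.13 FPKM in pifq and 64.9 ± 3.502 FPKM in WT in cotyledons (log2 change 0.53 ± 0.15, adjusted p = 0.0061), 56.4 ± 9.33 FPKM in pifq and 39.4 ± 4.09 FPKM in WT in hooks (log2 change 0.50 ± 0.15, adjusted p = 0.0086) and 20.9 ± 5.33 FPKM in pifq and 12.7 ± 1.21 FPKM in WT in hypocotyls (log2 change 0.65 ± 0.15, adjusted p = 0.0017). With the organelle-encoded share in the fit its hook change was -0.01 ± 0.26, and with median-ratio scaling it was 0.32 and not called.

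The xanthophyll hydroxylases diverged. LUT5 (AT1G31800, chromosome 1, 11396402 to 11399714, plus strand), a cytochrome P450 that hydroxylates the beta ring on the way to lutein, had 55.5, 54.01 and 52.7 FPKM in the pifq libraries, against 21.4, 18.2 and 16.96 FPKM in the WT libraries in cotyledons (log2 change 1.48 ± 0.17, adjusted p = 1.9e-06). It had 38.6, 31.02 and 42.02 FPKM in the pifq libraries, against 11.03, 8.71 and 8.72 FPKM in the WT libraries in hooks (log2 change 1.86 ± 0.17, adjusted p = 1.7e-07) and 14.8, 12.1 and 17.6 FPKM in the pifq libraries, against 2.28, 4.15 and 4.08 FPKM in the WT libraries in hypocotyls (log2 change 1.83 ± 0.17, adjusted p = 3.8e-07). In hooks and hypocotyls this was the greatest change of any member, and the groups were far apart in every organ. LUT1 (AT3G53130, chromosome 3, 19692757 to 19697542, plus strand), the P450 that hydroxylates the epsilon ring in the same branch, had 6.25, 4.94 and 8.52 FPKM in the pifq libraries, against 2.27, 2.99 and 2.69 FPKM in the WT libraries in hypocotyls (log2 change 1.03 ± 0.17, adjusted p = 8.7e-05). It stood at 15.9 ± 2.11 FPKM in pifq and 8.25 ± 2.11 FPKM in WT in hooks (log2 change 0.88 ± 0.17, adjusted p = 2.5e-04) and at 21.5 ± 1.11 FPKM in pifq and 19.6 ± 0.819 FPKM in WT in cotyledons, where it was not called (0.12 ± 0.17). All 3 pifq libraries of LUT1 lay above WT in each organ, by little in cotyledons.

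Levels per length allow these genes to be set beside each other within a library, free of library scaling. The LUT5 to LUT1 ratio was 2.52 ± 0.0662 in pifq and 0.9597 ± 0.09603 in WT in cotyledons, 2.34 ± 0.0698 in pifq and 1.17 ± 0.121 in WT in hooks and 2.29 ± 0.201 in pifq and 1.303 ± 0.266 in WT in hypocotyls (SD, n = 3 each). The genotypes did not overlap in any organ, and the exact two-sided permutation p was 0.1 in each, the smallest that 3 against 3 libraries can give. Another annotated gene on the same strand, AT3G53140, covers 39.7% of the span of LUT1 and is not among the genes listed. How reads in that overlap were counted is not given, so the ratio and the level and changes of LUT1 are uncertain. These ratios were chosen after the values were seen.

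The non-haem beta-ring hydroxylases BCH1 and BCH2 lead from beta-carotene to zeaxanthin. BCH1 (AT4G25700, chromosome 4, 13093869 to 13096049, minus strand) had 52.05, 52.5 and 59.3 FPKM in the pifq libraries, against 116, 109 and 115 FPKM in the WT libraries in cotyledons (log2 change -1.04 ± 0.15, adjusted p = 1.4e-05), with all pifq libraries far below WT. It was also lower in hooks, at 34.4 ± 6.31 FPKM in pifq and 50.8 ± 4.75 FPKM in WT (log2 change -0.56 ± 0.15, adjusted p = 0.0034), and in hypocotyls, at 28.8 ± 4.07 FPKM in pifq and 44.7 ± 8.14 FPKM in WT (log2 change -0.61 ± 0.15, adjusted p = 0.0024). BCH2 (AT5G52570, chromosome 5, 21334793 to 21337126, minus strand) had 64.1, 74.7 and 77.1 FPKM in the pifq libraries, against 48.8, 48.02 and 46.97 FPKM in the WT libraries in cotyledons, with the pifq libraries above WT but a change of 0.57 ± 0.25 that was not called (adjusted p = 0.063). It was called with median-ratio scaling (0.78, adjusted p = 0.018) and with only the libraries compared (0.57, adjusted p = 3.8e-04). In hooks BCH2 stood at 29.97 ± 11.4 FPKM in pifq and 16.3 ± 3.29 FPKM in WT (log2 change 0.78 ± 0.25, adjusted p = 0.014) with overlapping groups, since pifq hook replicate 2 at 17.1 FPKM fell among the WT values. That call was lost without WT hook replicate 3, pifq hook replicate 1 or pifq hook replicate 3 (adjusted p = 0.062 to 0.084). BCH2 was not called in hypocotyls (0.43 ± 0.25). The BCH1 to BCH2 ratio was 0.761 ± 0.0552 in pifq and 2.36 ± 0.0978 in WT in cotyledons, 1.23 ± 0.334 in pifq and 3.17 ± 0.395 in WT in hooks and 3.75 ± 1.28 in pifq and 8.03 ± 1.53 in WT in hypocotyls, again without overlap (exact two-sided permutation p = 0.1 in each). In cotyledons BCH2 thus had the higher level of the pair in pifq and BCH1 in WT. The IDI1 to IDI2 ratio did not overlap between genotypes either, at 0.714 ± 0.0276 in pifq and 0.608 ± 0.0392 in WT in cotyledons. It was 1.07 ± 0.166 in pifq and 0.820 ± 0.0441 in WT in hooks, and 0.944 ± 0.0769 in pifq and 0.765 ± 0.0721 in WT in hypocotyls. How often other pairs of genes separate in this way was not counted.

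The xanthophyll cycle enzymes were higher in pifq in part. ZEP, which makes violaxanthin from zeaxanthin, stood at 101 ± 6.93 FPKM in pifq and 73.3 ± 3.51 FPKM in WT in cotyledons (log2 change 0.46 ± 0.16, adjusted p = 0.021), 62.1 ± 13.1 FPKM in pifq and 35.05 ± 2.91 FPKM in WT in hooks (log2 change 0.79 ± 0.16, adjusted p = 5.2e-04) and 52.4 ± 10.13 FPKM in pifq and 32.1 ± 6.44 FPKM in WT in hypocotyls (log2 change 0.69 ± 0.16, adjusted p = 0.0020). Its cotyledon call was lost without WT cotyledon replicate 1 or 2 or pifq cotyledon replicate 1 or 3 (adjusted p = 0.054 to 0.065). VDE, which runs the reverse reaction in strong light, stood at 30.9 ± 1.68 FPKM in pifq and 18.04 ± 3.94 FPKM in WT in cotyledons (log2 change 0.77 ± 0.24, adjusted p = 0.011) and 17.3 ± 4.56 FPKM in pifq and 9.63 ± 1.72 FPKM in WT in hooks (log2 change 0.76 ± 0.24, adjusted p = 0.011). In hypocotyls VDE was not called (0.17 ± 0.24). Its cotyledon p was 0.056 without WT cotyledon replicate 3, and its hook p was 0.057 without WT hook replicate 3 and 0.066 without pifq hook replicate 1.

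**Figure D3:**
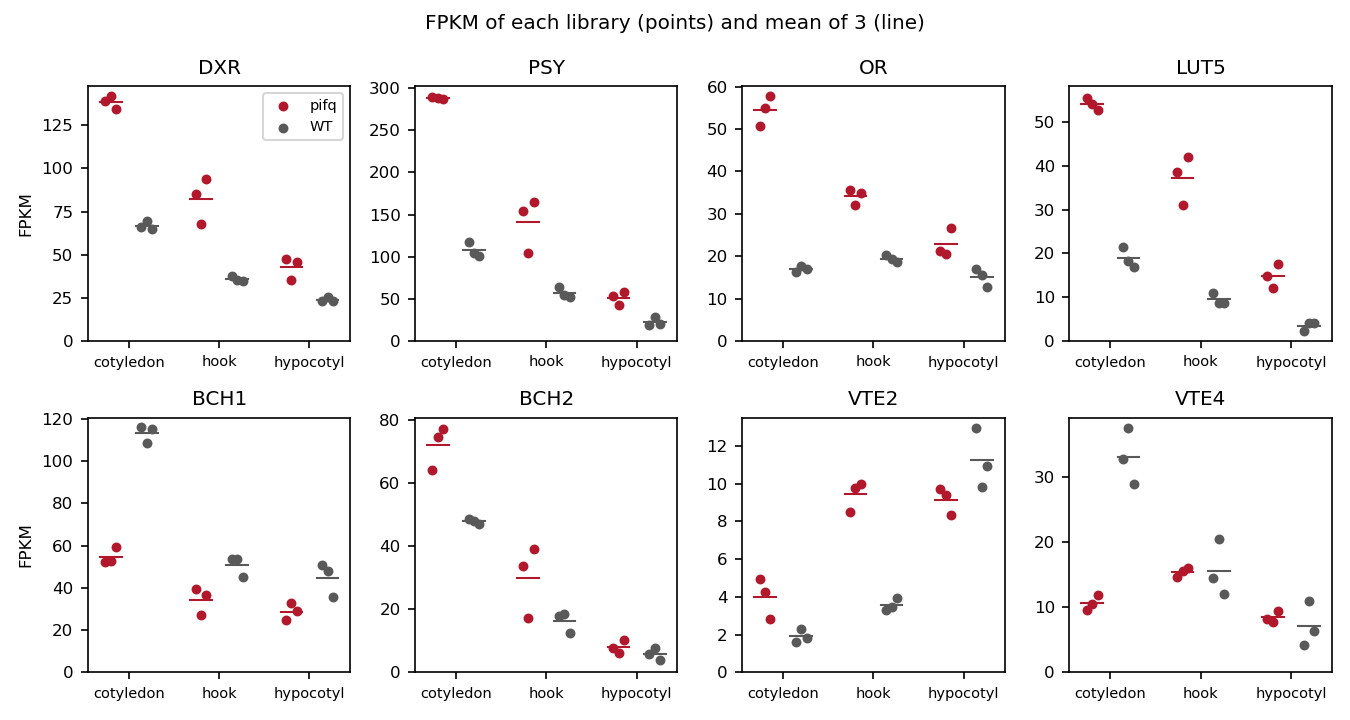
FPKM of each library (points) and the mean of 3 (line) for 8 of the genes in cotyledon, hook and hypocotyl, pifq in red left of WT in grey, on axes that start at 0. PSY, OR and LUT5 are higher in pifq in every organ and BCH1 lower, and the VTE4 groups are apart in cotyledons and overlap in hooks and hypocotyls.

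Of the enzymes that cleave carotenoids, each behaved differently. CCD1 (AT3G63520), a dioxygenase outside the plastid that makes volatile ionones, stood at 137 ± 5.73 FPKM in pifq and 181 ± 7.72 FPKM in WT in cotyledons (log2 change -0.40 ± 0.12, adjusted p = 0.0095). It was not called in hooks (0.05 ± 0.12) or hypocotyls (0.18 ± 0.12), and with median-ratio scaling its cotyledon change of -0.19 was not called and those in hooks and hypocotyls were -0.13 and -0.06. CCD4 (AT4G19170), a plastoglobule enzyme that degrades carotenoids, was low throughout and higher in pifq in each organ, with 4.45 ± 0.445 FPKM in pifq and 2.75 ± 0.341 FPKM in WT in cotyledons (log2 change 0.54 ± 0.13, adjusted p = 0.0021). Its changes were 0.48 ± 0.13 in hooks (adjusted p = 0.0046) and 0.42 ± 0.13 in hypocotyls (adjusted p = 0.013). The hypocotyl p was 0.058 without WT hypocotyl replicate 1 and 0.064 without WT hypocotyl replicate 2. NCED3 (AT3G14440) was higher in pifq hooks, at 24.5 ± 3.04 FPKM in pifq and 13.8 ± 0.926 FPKM in WT (log2 change 0.78 ± 0.22, adjusted p = 0.0059), and not called in cotyledons (-0.31 ± 0.22) or hypocotyls (0.07 ± 0.22).

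Tocopherol genes did not change as a block. HPPD (AT1G06570), which makes homogentisate for tocopherol and plastoquinone, was lower in pifq cotyledons, at 29.3 ± 1.09 FPKM in pifq and 47.9 ± 1.26 FPKM in WT (log2 change -0.69 ± 0.19, adjusted p = 0.0047). It was not called in hooks (-0.41 ± 0.19, adjusted p = 0.068) or hypocotyls (-0.08 ± 0.19), and its hook p was 0.0097 without WT hook replicate 2 and 0.038 without WT hook replicate 3. These fits kept WT hook replicate 1, at 41.4 FPKM, whereas WT hook replicates 2 and 3 stood at 19.3 and 21.7 FPKM. The pifq hook libraries stood at 18.7, 18.5 and 20.5 FPKM, so the groups overlapped. VTE2 (AT2G18950, chromosome 2, 8207199 to 8210513, plus strand) had 8.51, 9.79 and 9.97 FPKM in the pifq libraries, against 3.28, 3.47 and 3.94 FPKM in the WT libraries in hooks (log2 change 1.19 ± 0.15, adjusted p = 4.2e-06). In cotyledons it stood at 4.01 ± 1.08 FPKM in pifq and 1.92 ± 0.343 FPKM in WT (log2 change 0.76 ± 0.15, adjusted p = 3.3e-04). In hypocotyls it had 9.71, 9.39 and 8.36 FPKM in the pifq libraries, against 12.9, 9.796 and 10.9 FPKM in the WT libraries, with pifq below WT but not called (-0.26 ± 0.15, adjusted p = 0.15).

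VTE3 (AT3G63410) was higher in pifq hooks, at 267 ± 12.3 FPKM in pifq and 156 ± 15.2 FPKM in WT (log2 change 0.77 ± 0.11, adjusted p = 2.1e-05), and hypocotyls, at 113 ± 15.7 FPKM in pifq and 70.3 ± 8.78 FPKM in WT (log2 change 0.68 ± 0.11, adjusted p = 1.1e-04), and not called in cotyledons (0.23 ± 0.11, adjusted p = 0.090). VTE1 (AT4G32770), the tocopherol cyclase, was called in no organ, with 6.67 ± 1.12 FPKM in pifq and 4.76 ± 0.188 FPKM in WT in hooks (adjusted p = 0.079). Its p was 0.043 in hooks without pifq hook replicate 2 and 0.0060 in hypocotyls without WT hypocotyl replicate 2. VTE4 (AT1G64970, chromosome 1, 24134085 to 24136109, minus strand), which methylates gamma- to alpha-tocopherol in the last step, had 9.55, 10.4 and 11.8 FPKM in the pifq libraries, against 32.7, 37.4 and 28.9 FPKM in the WT libraries in cotyledons (log2 change -1.55 ± 0.23, adjusted p = 2.4e-05). This was the greatest fall of any member, and the pifq libraries lay far below WT. In hooks VTE4 stood at 15.4 ± 0.748 FPKM in pifq and 15.6 ± 4.37 FPKM in WT and in hypocotyls at 8.46 ± 0.839 FPKM in pifq and 7.17 ± 3.51 FPKM in WT, neither called. Without WT hypocotyl replicate 2 the hypocotyl change was 0.62 with adjusted p = 0.013. Genes on the other strand overlap VTE4 over 24.5% (AT1G08733) and 5.93% (AT1G64960) of its span.

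Whether the pifq change differed between organs was tested as the difference of the log2 changes. Between hooks and cotyledons it differed for 8 of 31 members, where 41.4% of all genes tested differed. The change was higher in hooks for PDS3, CRTISO, LUT1, CCD1, NCED3, VTE3 and VTE4 and lower for OR. Between hypocotyls and cotyledons it differed for 7 (45.7% of genes), higher in hypocotyls for LUT1, CCD1, VTE3 and VTE4 and lower for ZISO, OR and VTE2. Between hypocotyls and hooks it differed for 2 (29.1% of genes), ZISO and VTE2, both lower in hypocotyls. None of the 7 MEP genes nor PSY was among them (limma, with unadjusted p under 0.05 for 2 of these 24 tests). Several of these calls were near the threshold. Of 12 fits that each left out 1 library, the hook against cotyledon difference was lost in 9 for PDS3 (adjusted p = 0.050 to 0.090) and 10 for CCD1 (0.053 to 0.12), and the hypocotyl against cotyledon difference in 5 for ZISO (0.055 to 0.087) and 7 for VTE3 (0.052 to 0.085).

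VTE4 had the greatest difference, 1.56 ± 0.32 for hooks against cotyledons (adjusted p = 0.0013) and 1.84 ± 0.32 for hypocotyls against cotyledons (adjusted p = 2.9e-04). VTE2 differed by -1.45 ± 0.21 for hypocotyls against hooks (adjusted p = 1.2e-04) and by -1.02 ± 0.21 for hypocotyls against cotyledons (adjusted p = 9.9e-04). LUT1 differed by 0.76 ± 0.23 for hooks against cotyledons (adjusted p = 0.017) and by 0.91 ± 0.23 for hypocotyls against cotyledons (adjusted p = 0.0051). Its overlap with AT3G53140 leaves these values uncertain too. Scaling bears on such differences, since it shifts all genes of an organ together. With median-ratio scaling 12 members differed between hypocotyls and cotyledons, among them DXR, ISPF, ISPH and PSY with smaller changes in hypocotyls, and DXS, ISPF, IDI1 and IDI2 differed between hooks and cotyledons. Over all genes on that scaling, 15.9% had a higher and 23.4% a lower change in hypocotyls than in cotyledons. VTE4, VTE2, OR and ZISO kept their differences on that scaling, and PDS3, CRTISO, LUT1, CCD1, NCED3 and VTE3 were no longer called. The hypocotyl against cotyledon difference of ZISO was not called with organelle-encoded genes removed (adjusted p = 0.087) or with their share in the fit (adjusted p = 0.15).

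The cytosolic mevalonate route was set beside the MEP pathway with a list of 11 genes. In cotyledons 6 were higher in pifq and 3 lower (24.4% and 35.4% of all genes), in hooks 3 and 4 (36.6% and 24%), and in hypocotyls 8 and 1 (35.9% and 16.5%), with median log2 changes of 0.24, -0.14 and 0.50. FPS1 and HMGS, for farnesyl diphosphate synthase and hydroxymethylglutaryl-CoA synthase, rose most in cotyledons (1.20 ± 0.09 and 1.03 ± 0.15), and HMGS and FPS2 in hypocotyls (1.01 ± 0.15 and 0.97 ± 0.10). In hooks the called rises were led by FPS2 (0.43 ± 0.10) and the mevalonate kinase gene MVK (0.29 ± 0.10). HMG2, for one of the hydroxymethylglutaryl-CoA reductases, fell in all 3 organs (-0.84 ± 0.12 in cotyledons, -1.22 ± 0.12 in hooks and -0.57 ± 0.12 in hypocotyls). HMG1 fell in cotyledons (-0.61 ± 0.11) and MVD1 in hooks (-0.63 ± 0.09). The hook counts depended on the setting, with 1 higher and 7 lower under median-ratio scaling (28.5% and 31.2% of all genes) and 0 and 2 with the organelle-encoded share in the fit (20.7% and 10.2%).

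**Figure D4:**
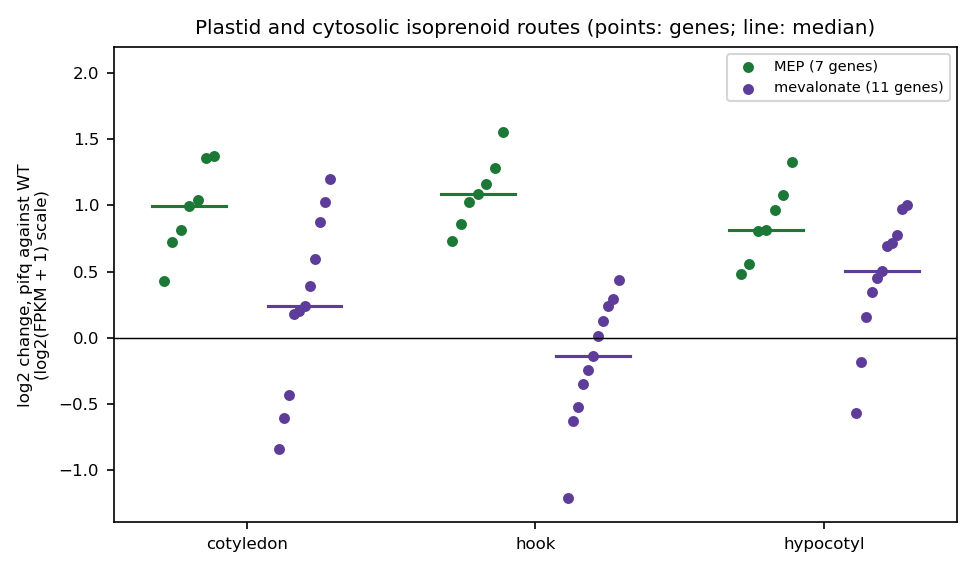
Log2 change in pifq against WT, on the scale of log2(FPKM + 1), of the 7 MEP genes and 11 mevalonate pathway genes in each organ, with points for genes and lines for medians. The MEP points all lie above 0, and the mevalonate medians are 0.24, -0.14 and 0.50 in cotyledon, hook and hypocotyl.

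Neighbouring plastid enzymes were counted in the same way. Of 11 further prenyl and tocopherol genes 10 could be tested, with 4 higher and 3 lower in pifq cotyledons (24.4% and 35.4% of all genes), 4 and 0 in hooks (36.6% and 24%) and 5 and 0 in hypocotyls (35.9% and 16.5%), so that the counts of higher genes in hooks and hypocotyls lay near or not far above those of all genes. HST, for the homogentisate solanesyltransferase of plastoquinone synthesis, rose in all 3 organs (0.94 ± 0.11, 1.09 ± 0.11 and 0.83 ± 0.11 in cotyledons, hooks and hypocotyls). The plastid terminal oxidase gene PTOX fell in cotyledons (-0.50 ± 0.09), as did TAT1 (-0.50 ± 0.20). Of 12 further carotenoid, abscisic acid and strigolactone genes 9 could be tested, with 3 higher and 2 lower in cotyledons, 2 and 3 in hooks and 2 and 3 in hypocotyls, to be read against the same shares of all genes. D27, a carotenoid isomerase of strigolactone synthesis, stood at 2.95 ± 0.177 FPKM in pifq and 0.2504 ± 0.183 FPKM in WT in cotyledons (log2 change 1.67 ± 0.15, adjusted p = 1.4e-07). NCED9 fell in all 3 organs, most in hooks (-1.92 ± 0.17), and so did AAO3, the last enzyme of abscisic acid synthesis (-0.33 ± 0.12, -0.41 ± 0.12 and -0.38 ± 0.12). ABA2 was higher in pifq cotyledons (0.67 ± 0.19) and lower in hooks (-0.60 ± 0.19) and hypocotyls (-0.54 ± 0.19).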

How the data were processed

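RNA sequencing measured 18 libraries, 3 for each of 6 groups of genotype and organ. Per the labels' protocols, RNA from a Trizol extraction went through DNase I and a NEBNext Ultra kit that keeps no strand. The authors deposited 1 FPKM value per gene and library. No header names the unit, which was inferred: value times merged TAIR10.1 exon length gives whole reads (tolerance 0.05) for 99.37% to 99.50% of low values, with denominators of 12955863 to 20701212 reads or read pairs. The submitters' processing notes name HISAT2, DESeq2 and TAIR10, with roles and versions not given in the sources used here.

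The fit was limma 3.58.1 in R 4.3.3, with a trend, on log2(FPKM + 1), over 6 group means without a block. The 19349 genes that reached 1 FPKM in 3 or more libraries entered it, and p-values were adjusted by Benjamini-Hochberg over all of them in each contrast. It was tested on simulated data. The labels name the replicates Bio1 to Bio3, as biological replicates, but do not state separate cultures. The p-values therefore measure the spread between these samples, whose sources are not stated further. The members, the other gene lists and the tests were chosen with earlier results of these data known. Library values are given for PSY and for members with groups that do not overlap and a called change of at least 2-fold on the log2(FPKM + 1) scale. Other lists are named by up to 2 called rises and falls per organ. Coordinates and upstream windows are TAIR10.1, to which all 32 genes matched. Of them 18 overlap another annotated gene, and without strand reads in such overlaps cannot be told apart. Alternatives were a pseudocount of 0.1, no filter, a filter of 5 FPKM, median-ratio scaling, removal of organelle-encoded genes, their share as a covariate, only the libraries compared, a replicate block and each library left out.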

Additional observations from a re-analysis of the deposited data

Results flagged for a closer look

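Some of these genes differed in their pifq change between organs by the test of the difference itself (limma, adjusted p under 0.05 over all genes). They were 8 of 31 members between hooks and cotyledons, where 41.4% of all genes differed. Between hypocotyls and cotyledons they were 7 (45.7% of all genes), and between hypocotyls and hooks 2 (29.1%). In each comparison the share of members that differed lay below that of all genes. Values are differences of log2 changes, the first organ minus the second. For hooks minus cotyledons they were 0.53 for PDS3, 0.51 for CRTISO, 0.76 for LUT1, 0.45 for CCD1, 1.10 for NCED3, 0.54 for VTE3, 1.56 for VTE4 and -0.85 for OR. For hypocotyls minus cotyledons they were 0.91 for LUT1, 0.58 for CCD1, 0.45 for VTE3, 1.84 for VTE4, -0.38 for ZISO, -1.07 for OR and -1.02 for VTE2. For hypocotyls minus hooks they were -0.66 for ZISO and -1.45 for VTE2. Scaling by median-ratio factors left the differences of VTE4, OR, VTE2 and ZISO called, and those of PDS3, CRTISO, LUT1, CCD1, NCED3 and VTE3 were no longer called. Of 12 fits that each left out 1 library, the hook against cotyledon difference was lost in 9 for PDS3 and 10 for CCD1. The hypocotyl against cotyledon difference was lost in 5 for ZISO and 7 for VTE3.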

How the results depend on the processing

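Counts of members are those under each alternative, with the share of all genes under it where given. A count without that share does not set the members apart from other genes. With the organelle-encoded share as a further term, 8 members were higher in pifq cotyledons (18 without it), against 13.9% of all genes. In hooks 9 were higher (24) and 0 lower (2), against 20.7% and 10.2% of all genes, and LCYE in hooks turned to -0.013. The organelle-encoded share and the genotype can barely be told apart in cotyledons and hooks. With median-ratio scaling 4 members were lower in hooks and 3 in hypocotyls, against 31.2% and 27.1% of all genes. On that scaling 12 differed in their change between hypocotyls and cotyledons, where 15.9% of all genes had a higher and 23.4% a lower change in hypocotyls. Also on that scaling, within pifq, 1 was higher in hooks than cotyledons and 2 in hypocotyls than hooks. With organelle-encoded genes removed, 4 were lower in hooks (25.8% of all genes), and 2 were higher in pifq hypocotyls than hooks. With only the libraries compared, 4 were higher in pifq hooks than cotyledons. With each library left out in turn, 1 to 2 members were lower in hypocotyls (2 without WT hypocotyl replicate 2 or pifq hypocotyl replicate 2). Members whose change differed between hypocotyls and hooks numbered 2 to 6 (6 without pifq hook replicate 2, 4 without WT hook replicate 1). Without pifq hook replicate 2, 18.1% of all genes had a higher and 12.2% a lower change in hypocotyls than in hooks. Members higher in pifq hypocotyls than hooks numbered 1 to 2 (2 without pifq hypocotyl replicate 3). The causes were not tested.

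Members higher in all 3 organs numbered 10 to 13 under the pseudocount, filter, scaling, organelle-removal, library-subset and replicate-block settings, where 9.92% to 15.5% of all genes had that pattern. With the organelle-encoded share in the fit they numbered 5, against 7.19% of all genes. The labels do not say that a replicate number marks a shared batch. In 1 of 15 pairs of groups, pifq hooks and pifq hypocotyls, all 3 same-number correlations exceeded 0.1 (0.12 to 0.20), and with the replicate block 23 members were lower and 1 higher in pifq hypocotyls than hooks, the counts without it. The replicate block changed no pifq against WT call and kept 18, 24 and 17 members higher, and CCD1 no longer differed between hooks and cotyledons. Median-ratio scaling also brought calls for VTE3 (higher in cotyledons), IDI1 and HPPD (lower in hooks) and IDI2 and VTE2 (lower in hypocotyls), and ended those of BCH2 in hooks and CCD4 in hypocotyls. For low genes such as CCD4 and VTE2 the added 1 FPKM reduces the log2 change.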

Other observations

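The mevalonate list was also counted for differences of the pifq change between organs. Of its 11 genes, 10 had a higher log2 change in hypocotyls than in hooks and 1 a lower one (limma), where 16.6% of all genes tested were higher, and the median difference was 0.65. MVK was the lower one. With median-ratio scaling the counts were the same, with the organelle-encoded share as a further term 7 were higher and 0 lower, and without pifq hook replicate 2 they were 10 and 1. For hooks against cotyledons 0 were higher and 5 lower, against 30.5% and 10.9% of all genes, and with median-ratio scaling 0 and 10, against 14.4% and 21.8%. None of the 7 MEP genes was called in either comparison on the deposited scaling, and DXS and ISPF were lower in hooks against cotyledons with median-ratio scaling. The cause was not tested.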
